A study of Saccharomyces cerevisiae with 8 samples.

Results

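The yeast genome holds a small set of very long open reading frames (ORFs), and this report describes how RNA polymerase II (RNAPII) peaks lay along them. Long ORFs were all nuclear protein-coding ORFs of the R64 annotation whose span from the first to the last coding base was at least 4000 bp, leaving out those inside transposons. The rule gave 196 of the 6002 nuclear ORFs (3.27%), and 44 further ORFs of that length lay inside mobile elements. The 196 spanned 4002 to 14733 bp with a median of 4748 bp, and 190 of them had a single coding exon. The 3 shortest members were PDR18 (4002 bp), SEC3 (4011 bp) and POM152 (4014 bp), and no list had a peak on any of them. The 3 longest ORFs just under the limit were SPT7 (3999 bp), SSK22 (3996 bp) and ADR1 (3972 bp), of which SSK22 alone was touched, over 6.06% of its length in 1 list.

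RNAPII was immunoprecipitated from Saccharomyces cerevisiae of the W303a background, grown to mid-log phase in synthetic complete medium at 30 °C, with the 8WG16 antibody to Rpb1, the largest RNAPII subunit. The Tfg1-K60,61R-HA strain expressed HA-tagged Tfg1 with lysines 60 and 61 changed to arginine, which impairs its modification by SUMO. By the study's account this strain has another, accidental missense change in the same protein. The Tfg1-HA strain expressed the HA-tagged protein with its normal sequence, so both strains carried the tag, and the lysine changes were not analysed apart from the accidental one. Each strain gave 2 independent replicates of immunoprecipitated (IP) and input chromatin, 8 libraries in all, and the files used here were the 4 peak lists, 1 for each IP library.

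Tfg1 is the largest subunit of TFIIF, the general transcription factor that escorts RNAPII to promoters and stays near it early in elongation. On a long gene many polymerases can travel at once, and one that stops early never reaches the distant 3′ end. Long ORFs have therefore often been used to compare polymerase at the start of a gene with polymerase at its end. In yeast they encode, among others, multidomain metabolic enzymes, cell wall synthases, ABC transporters, giant kinases and scaffolds of large complexes.

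One property of the lists bears on every comparison between the strains. The peak names inside the lists were in upper case for replicate 1 of both genotypes and in lower case for replicate 2 of both, and in yeast nomenclature lower case usually marks a mutant. In both genotypes the name of the replicate 2 list also held a letter m, which the replicate 1 list lacked. The labels were followed here and each list is given separately. For some of the strain differences below, the value with the lists grouped by the case of their names is also given. Others can turn round with that grouping without a value being given. The list of Tfg1-K60,61R-HA replicate 1 also held 894 rows that repeated the list of Tfg1-K60,61R-HA replicate 2, and these were dropped. The lists then held 1098 and 894 peaks in Tfg1-K60,61R-HA, against 1257 and 1171 peaks in Tfg1-HA. They carried no read counts, so the depth behind a peak is unknown and an ORF without a peak is not shown to be free of RNAPII.

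The sequences just before 4 of the long ORFs are shown because peaks of every list ran through the first 3 of them, while in the fourth, PDR5, peaks began within the window or after it. Each is the stretch from 250 bases before to 50 bases after the A of the start codon, on the coding strand, from the RefSeq R64 assembly. Capitals mark the start codon, any TATAAA and any CATGTGA, the core bound by the Ino2-Ino4 activator of lipid genes, on either strand. FAS1 lies at chrXI:100421-100720, FAS2 at chrXVI:108402-108701, FKS1 at chrXII:809747-810046 and PDR5 at chrXV:619590-619889, all on the plus strand.
FAS1: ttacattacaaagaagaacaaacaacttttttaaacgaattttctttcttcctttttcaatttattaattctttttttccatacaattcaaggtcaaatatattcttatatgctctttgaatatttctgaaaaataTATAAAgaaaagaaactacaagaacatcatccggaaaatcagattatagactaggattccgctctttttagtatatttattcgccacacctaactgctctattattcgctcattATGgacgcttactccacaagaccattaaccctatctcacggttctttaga
FAS2: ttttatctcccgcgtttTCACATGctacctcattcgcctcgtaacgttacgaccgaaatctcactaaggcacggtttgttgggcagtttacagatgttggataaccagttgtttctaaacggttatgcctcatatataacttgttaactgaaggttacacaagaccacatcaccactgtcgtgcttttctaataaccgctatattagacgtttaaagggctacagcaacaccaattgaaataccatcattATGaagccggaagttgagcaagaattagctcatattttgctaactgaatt
FKS1: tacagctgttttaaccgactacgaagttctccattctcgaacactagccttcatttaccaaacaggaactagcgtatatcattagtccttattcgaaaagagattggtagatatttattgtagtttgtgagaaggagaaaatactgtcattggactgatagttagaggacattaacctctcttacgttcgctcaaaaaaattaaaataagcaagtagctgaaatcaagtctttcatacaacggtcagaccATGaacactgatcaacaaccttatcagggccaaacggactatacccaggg
PDR5: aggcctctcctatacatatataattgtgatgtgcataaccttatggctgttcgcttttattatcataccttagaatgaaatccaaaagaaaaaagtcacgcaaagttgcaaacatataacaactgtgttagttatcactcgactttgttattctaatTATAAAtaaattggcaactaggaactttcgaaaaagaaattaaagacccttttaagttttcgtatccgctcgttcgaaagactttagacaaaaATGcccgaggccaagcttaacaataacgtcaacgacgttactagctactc

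The FAS1 window held 1 TATAAA, the FAS2 window 1 CATGTGA (read on the opposite strand), the FKS1 window neither, and the PDR5 window 1 TATAAA. On either strand, TATAAA was found in the windows of 81 of the 196 long ORFs (41.3%) and in 45.2% of the 6001 complete windows of all nuclear ORFs. CATGTGA was found in the windows of 3 long ORFs and in 1.98% of all windows. The motif bound by the drug-resistance activators Pdr1 and Pdr3, written TCCGNGGA, was found in the window of 1 long ORF, which was not PDR5, and in 1.22% of all windows. Bases further upstream were not searched, so a motif there would be missed. No motif overlapped another in the windows shown.

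Most long ORFs carried no peak in any list. Of the 196, 150 were untouched in all 4 lists and 46 (23.5%) were touched by at least 1 peak in at least 1 list, where 39.8% of all 6002 ORFs were touched. By list, peaks touched 34 and 22 long ORFs in Tfg1-K60,61R-HA (17.3% and 11.2%), against 40 and 31 in Tfg1-HA (20.4% and 15.8%). Over all ORFs the touched share was 30.5% and 23.1% in Tfg1-K60,61R-HA, against 35.1% and 31.1% in Tfg1-HA. An ORF was called occupied where peaks covered at least 50% of it, and 10 long ORFs (5.1%) were occupied in at least 1 list, beside 22.8% of all ORFs. The untouched members included SNQ2 and PDR12 among the ABC transporters, URA2 of pyrimidine synthesis, DYN1 (dynein heavy chain), TRA1 (the shared scaffold of 2 histone acetyltransferase complexes), the kinase TOR1 and REA1, also called MDN1, the ribosome-assembly ATPase that is the longest ORF of the genome at 14733 bp.

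In Tfg1-K60,61R-HA, 8 and 5 long ORFs were occupied, against 9 and 8 in Tfg1-HA. This was 4.08% and 2.55% of the long ORFs in Tfg1-K60,61R-HA, against 4.59% and 4.08% in Tfg1-HA. Over all 6002 ORFs the shares were 16.9% and 12.7% in Tfg1-K60,61R-HA, against 19.9% and 17.3% in Tfg1-HA. Tfg1-K60,61R-HA averaged 6.50 ± 2.12 occupied long ORFs and Tfg1-HA 8.50 ± 0.707 (SD, n = 2 lists each), a difference of −2 (exact permutation test, two-sided p = 0.667). The difference was −0.500 without Tfg1-K60,61R-HA replicate 2, −3.50 without Tfg1-K60,61R-HA replicate 1 and −4.50 where 25% coverage was enough. Of the summed length of the long ORFs (1032 kb), peaks covered 5.06% and 3.25% in Tfg1-K60,61R-HA, against 5.93% and 5.37% in Tfg1-HA. Both Tfg1-K60,61R-HA lists lay below both Tfg1-HA lists, with means of 4.15% ± 1.28 and 5.65% ± 0.394 (SD, n = 2 lists each) and a difference of −1.50 points (exact permutation test, two-sided p = 0.333). With 2 lists against 2 the smallest p is 0.333, so no difference between the strains could pass 0.05. The difference in length was −0.591 points without Tfg1-K60,61R-HA replicate 2, the list with the fewest peaks, and −2.40 points without Tfg1-K60,61R-HA replicate 1.

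**Figure D1:**
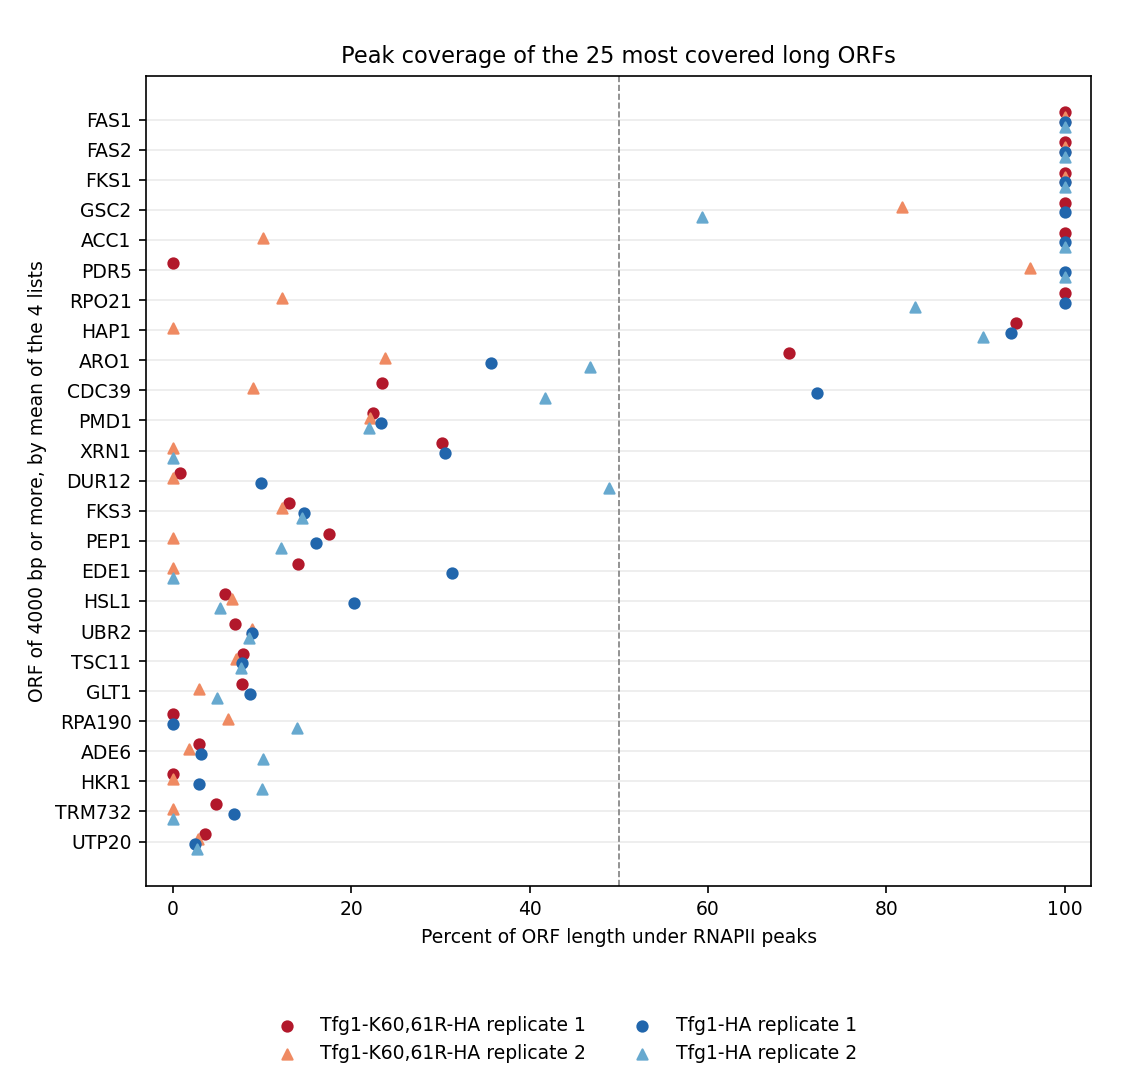
Percent of ORF length under RNAPII peaks (x axis) for the 25 long ORFs with the highest mean over the 4 lists (y axis). Each point is 1 list, circles are replicate 1, triangles are replicate 2, and the dashed line marks 50%. FAS1, FAS2 and FKS1 sit at 100% in all 4 lists, while ACC1, PDR5, RPO21 and HAP1 each have 1 Tfg1-K60,61R-HA list far below the other 3.

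Long ORFs of lipid synthesis stood at the top. FAS1 and FAS2, which encode the subunits of cytosolic fatty acid synthase, lay wholly under peaks (100%) in all 4 lists. FAS1 (chrXI:100671-106826, plus strand, 1 coding exon) lay under single peaks of 7267 and 7037 bp in Tfg1-K60,61R-HA, against 8045 and 8263 bp in Tfg1-HA. The fold of these peaks, the authors' ratio of IP to input-derived background averaged over the peak, was 4.18 and 1.75 in Tfg1-K60,61R-HA, against 5.68 and 4.54 in Tfg1-HA. Within its own list the FAS1 peak ranked at the 94.4th and 66.3rd percentile of fold in Tfg1-K60,61R-HA, against the 96.7th and 94.0th in Tfg1-HA. The replicate 2 list of Tfg1-K60,61R-HA was therefore the one that stood apart.

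FAS2 (chrXVI:108652-114315, plus strand, 1 coding exon) gave the same picture. Its peak folds were 3.19 and 1.77 in Tfg1-K60,61R-HA, against 4.94 and 4.29 in Tfg1-HA. The peak began 985 and 918 bp before the start codon in Tfg1-K60,61R-HA, against 1558 and 3988 bp before it in Tfg1-HA, where in replicate 2 it also took in VMA11 and NSL1. ACC1 (chrXIV:654673-661374, minus strand), encoding acetyl-CoA carboxylase, which makes the malonyl-CoA that fatty acid synthase uses, was covered over 100% and 10.1% in Tfg1-K60,61R-HA, against 100% and 100% in Tfg1-HA. In Tfg1-K60,61R-HA replicate 2 its peak began 465 bp before the start codon and covered only the first 679 bp. In the other 3 lists 1 peak of 9483 to 9576 bp spanned ACC1 together with its upstream neighbour TIM23. The fourth long ORF of this group, HFA1, the mitochondrial acetyl-CoA carboxylase, was untouched.

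A pair of cell wall synthases was occupied in every list. FKS1 (chrXII:809997-815627, plus strand), which encodes the main catalytic subunit of beta-glucan synthase, was covered over 100% in all 4 lists. Its fold was 2.97 and 2.56 in Tfg1-K60,61R-HA, against 3.64 and 3.04 in Tfg1-HA. Its peak started 310 and 296 bp before the start codon in Tfg1-K60,61R-HA, against 355 and 357 bp in Tfg1-HA, and ended 520 to 554 bp past the stop codon in all lists. FKS1 was thus the long ORF whose peak edges and fold varied least between lists among the 3 that were fully covered. It was also the 1 long ORF still occupied in all 4 lists when only peaks with a fold of 2 or more were counted.

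GSC2 (chrVII:548264-553951, plus strand), also called FKS2, encodes the alternative subunit that is known to be induced by stress. It was covered over 100% and 81.8% in Tfg1-K60,61R-HA, against 100% and 59.4% in Tfg1-HA, so the 2 replicate 1 lists were full and the 2 replicate 2 lists were not. In Tfg1-K60,61R-HA replicate 2 it carried a 5′ piece of 2356 bp and a 3′ piece of 2294 bp, and in Tfg1-HA replicate 2 a 5′ piece of 799 bp and a 3′ piece of 2579 bp, with an uncovered stretch between them. No 100-base window of FKS1 or GSC2 occurred elsewhere in the genome. Of the other long cell wall ORFs, FKS3, a paralog used in spore wall formation, was covered over 13.03% and 12.2% in Tfg1-K60,61R-HA, against 14.7% and 14.5% in Tfg1-HA, all of it from a peak that covered its downstream neighbour GAS1. HKR1, a mucin-like osmosensor, was at 0% and 0% in Tfg1-K60,61R-HA, against 2.92% and 9.93% in Tfg1-HA.

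**Figure D2:**
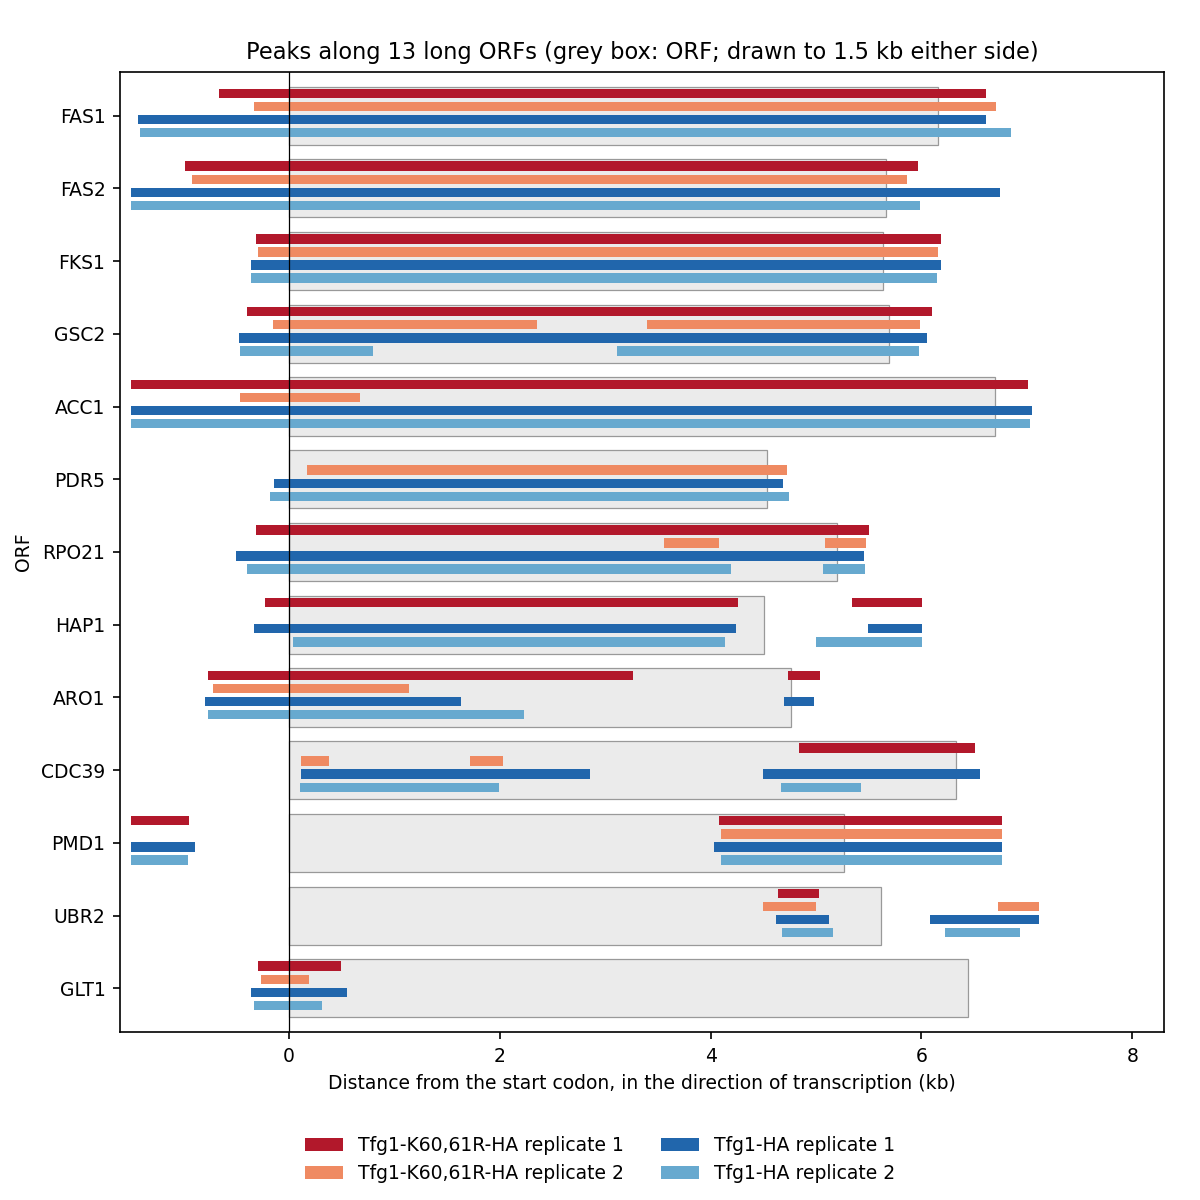
Peaks (coloured bars, 1 row per list) along the 10 occupied long ORFs and along PMD1, UBR2 and GLT1, by distance from the start codon in kb in the direction of transcription. Grey boxes are the ORFs, and peaks are drawn up to 1.5 kb beyond either end. In GSC2, RPO21 and CDC39 the covered pieces of some lists leave the middle of the ORF bare, and in UBR2 a short inner piece recurs in all 4 lists.

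PDR5 (chrXV:619840-624375, plus strand), the main multidrug ABC transporter, was covered over 0% and 96.1% in Tfg1-K60,61R-HA, against 100% and 100% in Tfg1-HA. The strain difference was −52.0 points by the labels and 48.0 points, lower-case minus upper-case lists, by the case of the peak names. Its peaks were shallow, with a fold of 1.32 in the Tfg1-K60,61R-HA list that had one, against 1.38 and 1.37 in Tfg1-HA. They started 177 bp after the start codon in Tfg1-K60,61R-HA replicate 2, against 138 and 176 bp before it in Tfg1-HA. In the window printed above, peaks covered none of the 250 bases before the PDR5 start codon in either Tfg1-K60,61R-HA list, against 55.2% and 70.4% in Tfg1-HA. For FAS1, FAS2, FKS1, ACC1 and ARO1 the same 250 bases were covered in full in every list, and for CDC39 they were bare in every list. The other 3 occupied ORFs varied between lists. These bases were covered over 100% and 58.4% in Tfg1-K60,61R-HA, against 100% and 100% in Tfg1-HA for GSC2, over 100% and 0%, against 100% and 100% for RPO21, and over 91.2% and 0%, against 100% and 0% for HAP1. Of the 12 long ORFs on the list of ABC transporters used here, VMR1 and YOR1 were also touched, at no more than 2.32% of their length, and the other 9 were untouched. PDR11, an ABC transporter that was not on that list, was untouched as well.

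RPO21 (chrIV:205360-210561, minus strand), which encodes Rpb1, the protein the antibody binds, was covered over 100% and 12.2% in Tfg1-K60,61R-HA, against 100% and 83.3% in Tfg1-HA. In Tfg1-K60,61R-HA replicate 2 it held an inner piece of 517 bp and a piece of 119 bp at its end, and in Tfg1-HA replicate 2 a bare gap separated the first 4197 bp from the last 134 bp. The folds of the longest-overlapping peaks were 1.36 and 1.32 in Tfg1-K60,61R-HA, against 1.40 and 1.28 in Tfg1-HA, and the groups overlapped. RPA190, the largest subunit of RNA polymerase I, was covered over 0% and 6.13%, against 0% and 13.9%, by a piece that began 99 and 23 bp after its start codon. RPO31, its counterpart in RNA polymerase III, was untouched.

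HAP1 (chrXII:646415-650923, plus strand), a haem-responsive activator of respiratory genes, was covered over 94.5% and 0% in Tfg1-K60,61R-HA, against 94.0% and 90.9% in Tfg1-HA. In each list with a peak, the peak stopped before the annotated stop codon, by 246 bp in Tfg1-K60,61R-HA replicate 1, against 270 and 375 bp in Tfg1-HA. CDC39 (chrIII:280117-286443, plus strand), also called NOT1, the scaffold of the Ccr4-Not complex, was covered over 23.5% and 8.98% in Tfg1-K60,61R-HA, against 72.3% and 41.7% in Tfg1-HA. Both Tfg1-K60,61R-HA lists lay below both Tfg1-HA lists. The covered pieces sat at different places: only the 3′ end in Tfg1-K60,61R-HA replicate 1, 2 short pieces in the first 2033 bp in Tfg1-K60,61R-HA replicate 2, and in each Tfg1-HA list a piece near the 5′ end and another beyond the middle. MOT1, an ATPase that displaces TATA-binding protein, was the other touched member of the 11 long ORFs listed under transcription and chromatin, at 3.53% in Tfg1-HA replicate 1 alone.

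ARO1 (chrIV:704484-709250, plus strand), the multifunctional enzyme of aromatic amino acid synthesis, was covered over 69.1% and 23.8% in Tfg1-K60,61R-HA, against 35.7% and 46.7% in Tfg1-HA. In all 4 lists a peak ran in from the 5′ end, reaching 3265 and 1136 bp into the ORF in Tfg1-K60,61R-HA, against 1630 and 2228 bp in Tfg1-HA. A separate peak also covered the last 31 bp in Tfg1-K60,61R-HA replicate 1 and the last 73 bp in Tfg1-HA replicate 1. The order of the strains differed between the pairs of lists. The fold of the ARO1 peak was 1.41 and 1.44 in Tfg1-K60,61R-HA, against 1.75 and 1.87 in Tfg1-HA, so the fold did not overlap between strains while the coverage overlapped. In each strain the fold was higher in the lower-case list, so the direction was the opposite with the lists grouped by case.

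Among the other long metabolic enzymes, GLT1 (glutamate synthase) showed coverage confined to its 5′ end in all 4 lists, over 7.72% and 2.92% in Tfg1-K60,61R-HA, against 8.59% and 4.95% in Tfg1-HA. Its fold was 1.53 and 1.52, against 2.08 and 2.07, a higher level than on CDC39 or PDR5 although a peak there filled at most 8.59% of the ORF. DUR12, the urea amidolyase usually written DUR1,2, was covered over 0.781% and 0% in Tfg1-K60,61R-HA, against 9.86% and 48.9% in Tfg1-HA, just under the limit for an occupied ORF in 1 list. ADE6 of purine synthesis was at 2.97% and 1.77%, against 3.14% and 10.1%. LYS2, often used as a reporter of transcription elongation, was touched only in Tfg1-K60,61R-HA replicate 1, at 2.13% of its length. That peak was 273 bp wide with a fold of 1.23, and only 89 bp of it lay in LYS2, at the 3′ end. The other 184 bp ran past the ORF end and reached the convergent neighbour RAD16. By the study's account, Tfg1-K60,61R-HA had less RNAPII on LYS2 when normalized read counts over ORFs were compared. The peak lists hold no counts, so this was not tested.

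The remaining role groups held no occupied ORF. The role lists are not complete, and 77 of the 196 long ORFs were on none of them, so the counts below are of listed ORFs, beside 23.5% of all long ORFs touched. None of the 7 listed under replication and repair was touched in any list. MMS1 and MMS22, which also act in DNA repair but were not on that list, were touched in Tfg1-HA replicate 1 alone (7.88% of MMS1) and in no list. Of the 13 of membrane traffic and lipid transfer, VPS13 alone was touched, at 0.148% and 0% in Tfg1-K60,61R-HA, against 0.318% and 0% in Tfg1-HA. Among the 12 signalling ORFs TSC11, IRA1 and STT4 were touched, and among the 10 cytoskeletal ORFs NUM1, BNR1, MYO4 and IQG1. Of the 9 of ribosome biogenesis and RNA metabolism, XRN1, UTP20 and UTP10 were touched. XRN1, the cytoplasmic exonuclease that degrades decapped mRNA, was covered over 30.2% and 0% in Tfg1-K60,61R-HA, against 30.5% and 0% in Tfg1-HA. By the labels, XRN1 therefore separated replicate 1 from replicate 2 and not the strains. With the lists grouped by the case of their peak names, lower-case minus upper-case lists came to −30.3 points. The 11 helicase-like ORFs of the subtelomeric Y′ elements were untouched except for 1.2% of YIL177C in Tfg1-HA replicate 1. At least 96.1% of the 100-base windows of each of them occur elsewhere in the genome, which can keep reads from being placed uniquely.

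Many of the touched ORFs carried only the edge of a peak. The 4 lists held 145 overlaps between a peak and a long ORF, of which 73 crossed the 3′ end only, 31 the 5′ end only, 20 lay inside the ORF and 21 spanned it entirely. In 63 of the 73 overlaps at a 3′ end most of the peak lay outside the ORF, and the median overlap was 185 bp. At the 5′ end, 12 of 31 peaks lay mostly outside and the median overlap was 574 bp. In 33 of the 73 the same peak covered at least 50% of another ORF.

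At the 3′ end and nowhere else, 20 long ORFs were touched. UTP20, a component of the small-subunit processome, was covered over 3.60% and 2.83% in Tfg1-K60,61R-HA, against 2.43% and 2.74% in Tfg1-HA, by a peak whose fold was 5.42 and 3.85, against 4.71 and 4.19, and which covered the histone genes HTA2 and HTB2. PMD1, which is convergent with the ribosomal protein gene RPS26B across a gap that holds the small nucleolar RNA gene SNR4, was covered over 22.5% and 22.04%, against 23.4% and 22.03%. TSC11, a subunit of TOR complex 2, was covered over 7.83% and 7.01%, against 7.71% and 7.59%, by the peak of MET6, encoding methionine synthase. Each of the 3 was touched in all 4 lists, and on PMD1 and TSC11 the coverage overlapped between the strains. Of the 31 long ORFs with a peak across the 3′ end only in some list, 20 had a convergent next ORF, while 100 of all 196 long ORFs did.

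UBR2, which encodes a ubiquitin ligase, was the only long ORF with an inner peak, and nothing at either end, in all 4 lists. The peak was 388 and 496 bp wide in Tfg1-K60,61R-HA, against 498 and 480 bp in Tfg1-HA, with folds of 1.25 and 1.47, against 1.59 and 1.26. The 4 peaks shared positions 4683 to 4997 of the ORF, and no tRNA, snoRNA or other annotated noncoding gene lay under any of them. The central 300 bases of the shared stretch (R64 chrXII:188293-188592, minus strand) are shown as the one recurrent inner site, with capitals marking the longest run of A and T, 13 bases.
UBR2: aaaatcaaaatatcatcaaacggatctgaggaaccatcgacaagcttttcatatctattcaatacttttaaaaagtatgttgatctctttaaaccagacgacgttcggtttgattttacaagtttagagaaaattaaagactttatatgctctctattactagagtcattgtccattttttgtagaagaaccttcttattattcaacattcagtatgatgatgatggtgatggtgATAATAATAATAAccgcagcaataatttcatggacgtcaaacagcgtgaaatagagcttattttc

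G and C made up 31.3% of this stretch, against 35.5% of the whole UBR2 ORF. VTH2 encodes a homologue of the sorting receptor Pep1. It had inner pieces of 249 and 232 bp in the Tfg1-HA lists and no peak in the Tfg1-K60,61R-HA lists. However, 97.8% of its 100-base windows occur elsewhere in the genome, which can keep reads there from being placed uniquely. NUM1, a cortical anchor for dynein, had 1 inner piece, in Tfg1-HA replicate 2.

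Along the long ORFs as a set, coverage was highest at the ends and lowest in between. Averaged over all 196, the first 10% of the ORF was covered over 5.34% and 4.04% in Tfg1-K60,61R-HA, against 8.08% and 7.48% in Tfg1-HA. The last 10% was covered over 7.88% and 4.90% in Tfg1-K60,61R-HA, against 8.61% and 5.87% in Tfg1-HA. Of the 10 equal bins of the ORF, the lowest was bin 8 (3.88%) and bin 6 (2.06%) in Tfg1-K60,61R-HA, against bin 6 (4.08% and 3.84%) in both Tfg1-HA lists. In the 500 bp beyond the ORF end the mean was 15.3% and 9.28% in Tfg1-K60,61R-HA, against 16.2% and 12.8% in Tfg1-HA, higher than inside the ORF in every list. In the 500 bp before the start codon it was 7.83% and 5.32% in Tfg1-K60,61R-HA, against 11.8% and 10.1% in Tfg1-HA. From 1000 to 500 bp before the start codon it was 13.1% and 8.74%, against 18.6% and 15.3%.

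**Figure D3:**
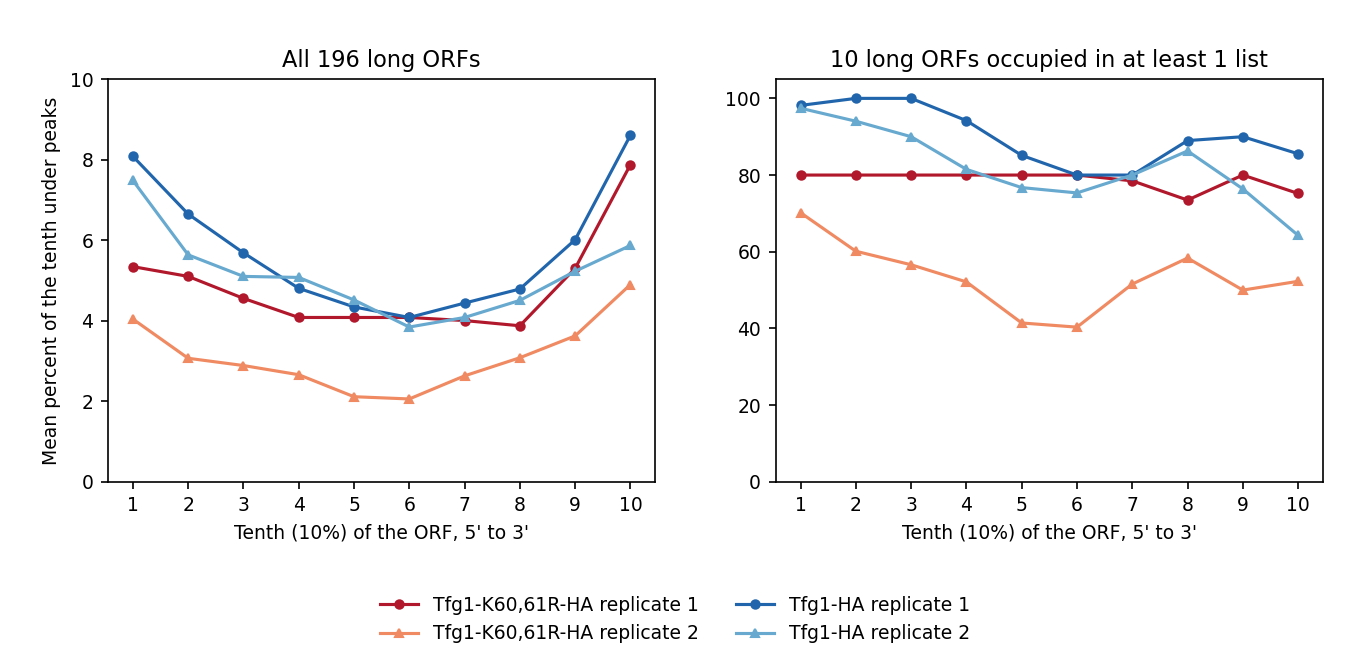
Mean percent under peaks (y axis) of each of 10 equal bins of the ORF, from the 5′ to the 3′ end (x axis), for all 196 long ORFs (left) and for the 10 occupied in at least 1 list (right, on another scale). Each line is 1 list, circles are replicate 1 and triangles replicate 2. Over all 196 every list is highest in bin 1 or bin 10, and over the 10 the Tfg1-K60,61R-HA replicate 2 line has its lowest value, 40.3%, in bin 6.

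The first 10% minus the last 10% came to −2.53 and −0.857 points in Tfg1-K60,61R-HA, against −0.523 and 1.61 points in Tfg1-HA. Both Tfg1-K60,61R-HA lists lay below both Tfg1-HA lists, with means of −1.69 ± 1.18 and 0.546 ± 1.51 points (SD, n = 2 lists each), a difference of −2.24 points (exact permutation test, two-sided p = 0.333, the smallest possible). The direction was the opposite, 1.91 points, with the lists grouped by the case of their peak names. The difference was −1.17 points without Tfg1-HA replicate 2 and −0.632 points with the same number of peaks, 894, taken from every list. Over the 4 lists the mean of first minus last was −0.574 ± 1.70 points (SD), not distinguishable from 0 (exact sign-flip test, two-sided p = 0.625, smallest possible 0.125).

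That value depended on the peaks that ran in from neighbours. When a peak counted for a long ORF only if at least 50% of the peak lay inside it, first minus last was 0.763 and 1.01 points in Tfg1-K60,61R-HA, against 2.57 and 3.41 points in Tfg1-HA, all 4 above 0. Their mean was 1.94 points (exact sign-flip test, two-sided p = 0.125, the smallest possible). By the labels both Tfg1-K60,61R-HA lists lay below both Tfg1-HA lists. In each strain the lower-case list lay above the upper-case list, so the direction was the opposite with the lists grouped by case. Over the 10 occupied ORFs, first minus last was 4.80 and 17.9 points in Tfg1-K60,61R-HA, against 12.6 and 33.2 points in Tfg1-HA. There too the lower-case list lay above the upper-case list in each strain, so the mean strain difference turned round with the case grouping. In those 10, the first 10% stood at 80.0% and 70.2% in Tfg1-K60,61R-HA, against 98.2% and 97.4% in Tfg1-HA, and the last 10% at 75.2% and 52.3%, against 85.5% and 64.3%. Without Tfg1-K60,61R-HA replicate 1 the mean over all 196 and the remaining 3 lists was 0.0782 points.

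Over all 5762 shorter ORFs, first minus last was −9.33 and −6.50 points in Tfg1-K60,61R-HA, against −6.52 and −5.28 points in Tfg1-HA. It was below 0 in all 4 lists, where over all 196 long ORFs it was below 0 in 3 of the 4. Among ORFs occupied in at least 1 list, the 10 long ORFs were above 0 in all 4 lists, while the 1322 shorter ORFs stood at −18.8 and −15.9 points in Tfg1-K60,61R-HA, against −8.70 and −9.33 points in Tfg1-HA. The 108 occupied ORFs from 2000 to under 4000 bp lay in between, at −17.6 and −4.94 points, against 2.60 and 7.24 points. The occupied sets were chosen by their coverage in these lists, so these are descriptions without a test.

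Long ORFs were occupied less often than shorter ORFs in every list. The share was 4.08% and 2.55% of the 196 long ORFs in Tfg1-K60,61R-HA, where it was 16.8% and 13.1% of the 5762 shorter ORFs. In Tfg1-HA it was 4.59% and 4.08% of the long ORFs, where it was 20.1% and 17.5% of the shorter ORFs. Long minus shorter averaged −13.1 ± 2.04 points (SD, n = 4 lists, exact sign-flip test, two-sided p = 0.125, the smallest possible), below 0 in 4 of 4 lists. The gap was −2.95 points when a peak counted only for an ORF that held at least 50% of it, and −6.03 points with peaks of fold 2 or more. The median peak was 1194 and 1100 bp wide in Tfg1-K60,61R-HA, against 1204 and 1152 bp in Tfg1-HA. The shorter ORFs had a median length of 1155 bp. A single peak of median width can thus cover 50% of many shorter ORFs but of no long ORF. The sign of the gap was therefore partly set by the definition of occupied, which the test cannot separate out. Among peaks at least 50% inside a long ORF the median width was 4028 and 1498 bp in Tfg1-K60,61R-HA, against 2242 and 1881 bp in Tfg1-HA.

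**Figure D4:**
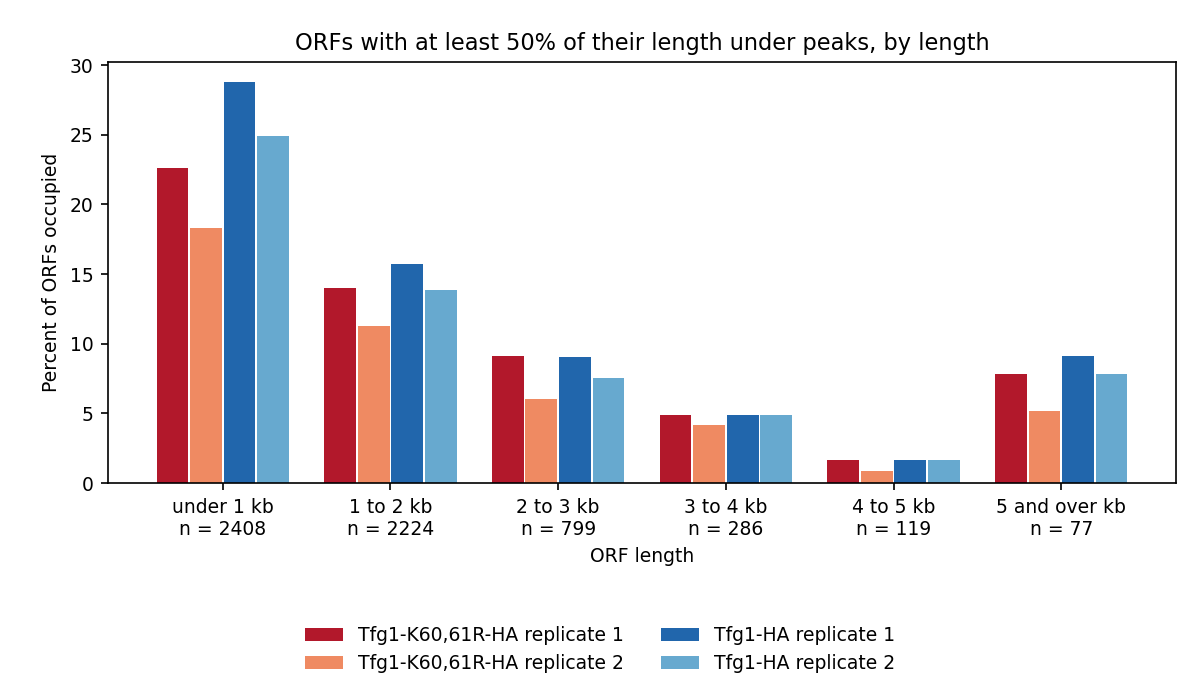
Percent of ORFs with at least 50% of their length under peaks (y axis, from 0) by ORF length (x axis, with the number of ORFs outside mobile elements), 1 bar for each list. The bars fall with length up to the band of 4000 to 5000 bp, at 1.68% and 0.840% in Tfg1-K60,61R-HA and 1.68% and 1.68% in Tfg1-HA, and stand higher for 5000 bp and over.

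The fall with length did not continue to the longest ORFs. In the band of 4000 to 5000 bp, 2 and 1 of 119 ORFs were occupied in Tfg1-K60,61R-HA, against 2 and 2 in Tfg1-HA. At 5000 bp or more, 6 and 4 of 77 were occupied in Tfg1-K60,61R-HA, against 7 and 6 in Tfg1-HA, or 7.79% and 5.19%, against 9.09% and 7.79%. These few were FAS1, FAS2, ACC1, FKS1, GSC2, RPO21 and CDC39, and 54 of the 77 were untouched in all 4 lists. Across the 196 the correlation of length with mean coverage was weak (Spearman rho = 0.13), given as a description over ORFs that share the same libraries.

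The occupied long ORFs tended to use the codons of highly expressed genes. A codon adaptation index was computed for each ORF from the codon usage of 138 ribosomal protein ORFs, which runs up to 1 for an ORF that uses only their preferred codons. The median was 0.323 in the 10 occupied long ORFs, 0.227 in the 36 touched but not occupied, and 0.221 in the 150 untouched. FAS2 (0.501), FAS1 (0.464) and ACC1 (0.424) had the highest indices of all 196, and FKS1 ranked 10 at 0.366. High values without occupancy were also seen: the flocculin FLO11 (0.398), URA2 (0.381), the weak-acid transporter PDR12 (0.381) and clathrin heavy chain CHC1 (0.363) were untouched. Over the 196 ORFs, index and mean coverage had a Spearman rho of 0.23, and over the 5762 shorter ORFs 0.32, as descriptions.

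The strains were last compared ORF by ORF. No long ORF was occupied in both Tfg1-HA lists and in neither Tfg1-K60,61R-HA list, a pattern that 104 of all 6002 ORFs showed (1.73%), and none showed the opposite pattern, found in 9 ORFs (0.15%). Coverage in each Tfg1-K60,61R-HA list was below that in each Tfg1-HA list for 8 long ORFs (4.08%), where the same held for 8.86% of all ORFs. The 8 were PDR5, CDC39, DUR12, HKR1, VTH2, ADE6, FKS3 and NUP188, with differences between −52.0 and −0.795 points. For 4 of the 8 the sign turned with the lists grouped by the case of their names, where lower-case minus upper-case lists came to 48.0 points for PDR5, 19.1 for DUR12, 3.50 for HKR1 and 2.89 for ADE6. It stayed below 0 for CDC39 (−22.5 points), VTH2, FKS3 and NUP188. Coverage was higher in both Tfg1-K60,61R-HA lists for UTP20 and IQG1, by 0.628 and 0.579 points, or 1.02% of the long ORFs beside 1.17% of all ORFs. By the case of the names UTP20 turned to −0.227 points and IQG1 stood at 0.512 points. The long ORFs were thus no more often lower or higher than ORFs in general.

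Grouping the lists by the case of their names gave 16 long ORFs lower in both lower-case lists (8.16%), beside 7.5% of all ORFs, among them HAP1, RPO21, GSC2, XRN1, EDE1 and PEP1. It gave 1 long ORF, RPA190, higher in both, beside 0.633% of all ORFs. EDE1, an endocytic scaffold, was covered over 14.0% and 0% in Tfg1-K60,61R-HA, against 31.3% and 0% in Tfg1-HA. PEP1, the sorting receptor for vacuolar hydrolases, was covered over 17.5% and 0%, against 16.1% and 12.1%. Whether the case of the names or the labels gives the genotype was not tested.

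Peak fold was compared on the 18 long ORFs touched in all 4 lists, taking in each list the peak with the longest overlap. Fold in each Tfg1-K60,61R-HA list was below that in each Tfg1-HA list for 10 of the 18 (55.6%), where the same held for 60.3% of the 1202 ORFs touched in all 4 lists. It was higher in both for TSC11 alone, at 1.80 and 2.196 in Tfg1-K60,61R-HA, against 1.66 and 1.54 in Tfg1-HA (4.41% of all). The fold belongs to the whole peak, neighbours included, and in ADE6 the peak with the longest overlap in Tfg1-HA replicate 2 lay at the 5′ end, whereas in the other 3 lists it lay at the 3′ end. The median log2 difference was −0.21 over the 18 and −0.19 over the 1202. Ranked within each list instead, the fold was lower in both for 7 of the 18 and 49.8% of all, and higher in both for 1 of the 18 and 8.74% of all. The largest log2 differences among the 18 were those of FAS2 (−0.95), FAS1 (−0.91) and ACC1 (−0.69), and for all 3 the fold in Tfg1-K60,61R-HA replicate 2 lay well below that in the other 3 lists.

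**Figure D5:**
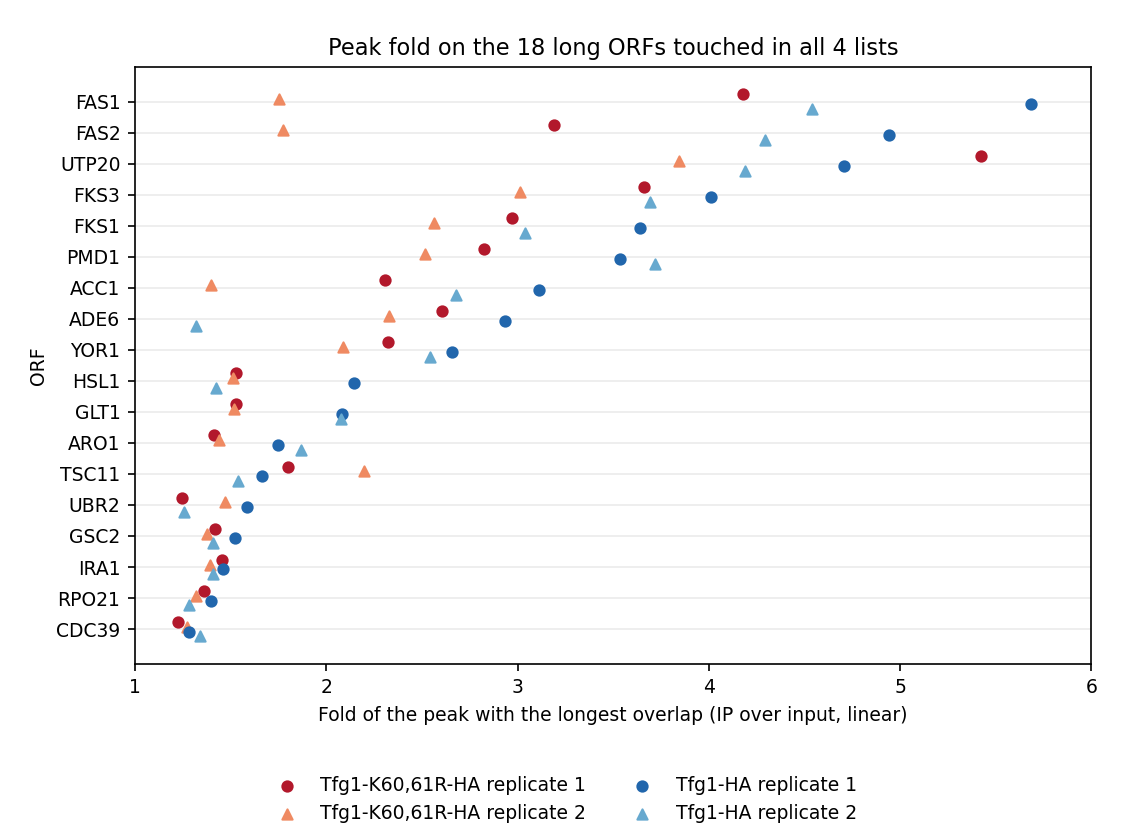
Fold of the peak with the longest overlap (x axis, linear ratio of IP to input-derived background, from 1) on each of the 18 long ORFs touched in all 4 lists (y axis, ordered by fold in Tfg1-HA replicate 1), with 1 point for each list. On FAS1 the Tfg1-K60,61R-HA points stand at 4.18 and 1.75 and the Tfg1-HA points at 5.68 and 4.54, and on TSC11 the order of the strains is the opposite.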

How the data were processed

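Reads were trimmed, aligned with Bowtie2 2.3.5.1 to sacCer3 and turned into broad peaks by the authors with MACS 2.2.7.1, separately for each IP library against input. The deposited columns used were peak start, peak end, fold ratio, −log10 p and −log10 q, each averaged by MACS over the peak. The deposited p-value and q-value columns served only as filters. Every peak had a −log10 q of at least 1.05, and the lists hold no counts, so depth is unknown. In the list of Tfg1-K60,61R-HA replicate 1, 894 repeated rows were dropped. ORFs, sequences and noncoding genes came from the RefSeq annotation of R64, the same assembly as sacCer3. Coverage was the percent of ORF bases under any peak, read 5′ to 3′ in 10 equal bins. An ORF was called repeated where over 10% of its 100-base windows occurred elsewhere. Named ORFs were those occupied in at least 1 list, the largest and smallest non-overlapping strain differences among the others, and LYS2, FKS1, PDR5, RPO21 and MDN1. Others were named after their values were seen. Members, role lists and tests were chosen with earlier results of these data known. Coverage code and exact tests were tested on simulated data. Exact permutation and sign-flip tests over lists (two-sided) used NumPy 2.4.6 and pandas 2.3.3 under Python 3.11.15, and figures matplotlib 3.10.9. P-values measure only the spread between these lists. Input libraries have no list of their own here. Alternatives were fold or q limits, equal peak numbers, peaks mostly inside the ORF, other length and occupancy limits, other end windows, repeated ORFs or rows, leaving out each list, the case grouping and the replicate block.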

Additional observations from a re-analysis of the deposited data

How the results depend on the processing

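Of 78 recalculations of the 5 comparisons over lists, 74 kept the direction and none passed a p of 0.05, which the number of lists does not allow. Those with the replicate block had to keep the direction, because pairing the lists changes the test and not the mean difference. The strain difference in first minus last 10% became 1.91 points with the lists grouped by the case of their peak names. The mean of first minus last over lists became 1.94 points with only peaks at least 50% inside the ORF, 17.1 points over the ORFs occupied in a list, and 0.0782 points without Tfg1-K60,61R-HA replicate 1. Leaving out each list in turn gave −3.50 to −0.500 occupied ORFs, −2.40 to −0.591 points of length, −3.31 to −1.17 points of first minus last between strains, −1.30 to 0.0782 over lists, and −13.9 to −12.2 for long minus shorter ORFs. With the replicate block the strain differences were −2 occupied ORFs, −1.50 points of length and −2.24 points of first minus last (exact sign-flip test over 2 pairs, p = 0.5 each, the smallest possible). Same-numbered lists share a number, the case of their peak names and the presence or absence of the letter m. The labels give no other link between them. Their deviations over the 46 touched ORFs correlated at 0.197. Requiring a fold of 2 or more left FAS1, FAS2, FKS1 and ACC1 occupied, the other 6 of the 10 in no list, and in Tfg1-K60,61R-HA replicate 2 FKS1 alone.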
